A study of Mus musculus with 22 samples.

Results

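The 9 genes followed here mark the megakaryocyte and its platelets. *Pf4*, *Ppbp*, *Itga2b*, *Itgb3*, *Gp1ba*, *Gp9*, *Vwf*, *Selp* and *Thbs1* were followed through ChIP-seq peak lists of mouse G1ER cells (labelled G1E-ER4). These are 9 of 21938 protein-coding genes of the GENCODE annotation of mm10, and each was examined over its gene body plus 20 kb on each side, called its gene window here. The lists held peaks of H3K4me3, the histone mark of active promoters, of H3K27ac, the mark of active promoters and enhancers, and of the insulator protein CTCF. The 10 H3K4me3 and 10 H3K27ac lists fell into 2 lists for each of 5 times, 0 h, 2 h, 6 h, 12 h and 24 h after β-estradiol, and CTCF had 1 list at 0 h and 1 at 24 h. All lists came from a single clonal line, made from the *Gata1*-null erythroid progenitor line G1E by adding GATA1-ER, a GATA1 protein that is always made but works only once estradiol binds its estrogen receptor part. Every group therefore lacked endogenous GATA1 and carried GATA1-ER, and all cells were grown with stem cell factor and erythropoietin. The groups differed in the time with β-estradiol, which activates GATA1-ER and starts erythroid differentiation, so the comparison of 0 h with 24 h asked how the chromatin marks at genes of a neighbouring lineage stood while the cells turned erythroid.

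Megakaryocytes and erythroid cells arise from a common progenitor, and both lineages need GATA1. The megakaryocyte genes are in addition known targets of ETS factors such as FLI1. Their products fall into 4 roles. PF4 (platelet factor 4) and PPBP (pro-platelet basic protein) are chemokines stored in α-granules. ITGA2B and ITGB3 are the subunits of the platelet fibrinogen receptor, integrin αIIbβ3. GP1BA and GP9 belong to the GPIb-IX-V complex, the receptor for von Willebrand factor. VWF, SELP (P-selectin) and THBS1 (thrombospondin-1) are adhesive proteins of platelet granules that endothelial cells also make.

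The H3K4me3 lists held 12925 to 14452 peaks, the H3K27ac lists 17247 to 18333, and the CTCF lists 33193 at 0 h and 41473 at 24 h. The lists give positions and a score but no read counts, so the depth behind a peak is unknown. Of 21 erythroid marker genes (*Ahsp*, the 22nd, had no match in the annotation), 20 to 21 had an H3K4me3 peak within 2 kb of the transcription start site (TSS) in each list, and 10 to 16 had an H3K27ac peak there. None of 5 lymphoid marker genes had either mark there, myeloid and mast cell markers had 1 to 3 of 7 for either mark, and markers from outside the blood had 0 to 1 of 6 for H3K4me3 and 0 of 6 for H3K27ac. A missing peak was not read as a missing mark. For example, 242 genes (1.1% of all) had H3K4me3 over the TSS in all 10 lists with no H3K27ac peak within 2 kb in any. Whether H3K27ac was absent there or its peaks were not called cannot be told from the lists.

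The sequences that the peaks below lie on or beside are shown first. The promoters are the 250 bases before the RefSeq start (GRCm38.p6), which 6 of the 9 genes had in the table used (*Pf4*, *Ppbp*, *Itga2b*, *Gp1ba*, *Gp9* and *Selp*, but not *Itgb3*, *Vwf* or *Thbs1*). They are printed for the genes whose TSS or immediate neighbourhood carried peaks and for *Cxcl3*, the neighbour of *Pf4* whose peak was lost. The other sequences are 300 bases at the midpoints of H3K27ac regions within *Itgb3* and upstream of *Gp9*. Capitals mark a GATA motif (GATA with A or T before it and A or G after it) or an ETS motif (GGAAG with A or C before it) on either strand, so a motif on the other strand reads as its reverse complement.
Gp1ba promoter, chr11:70638872-70639121, plus strand: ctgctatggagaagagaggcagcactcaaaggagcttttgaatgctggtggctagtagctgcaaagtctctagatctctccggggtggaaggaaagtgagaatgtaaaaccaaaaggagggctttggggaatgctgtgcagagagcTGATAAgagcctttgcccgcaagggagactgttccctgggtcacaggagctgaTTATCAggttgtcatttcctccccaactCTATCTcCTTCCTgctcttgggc
Gp9 promoter, chr6:87777820-87778069, plus strand: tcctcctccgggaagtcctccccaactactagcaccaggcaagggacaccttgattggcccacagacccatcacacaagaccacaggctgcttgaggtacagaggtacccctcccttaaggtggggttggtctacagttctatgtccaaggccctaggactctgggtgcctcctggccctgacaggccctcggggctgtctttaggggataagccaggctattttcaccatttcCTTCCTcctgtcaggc
Itga2b promoter, chr11:102469884-102470133, minus strand: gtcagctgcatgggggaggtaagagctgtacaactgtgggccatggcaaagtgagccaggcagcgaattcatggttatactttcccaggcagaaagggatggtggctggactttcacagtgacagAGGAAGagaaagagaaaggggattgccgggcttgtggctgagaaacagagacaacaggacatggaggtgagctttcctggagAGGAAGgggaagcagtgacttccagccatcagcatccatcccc
Pf4 promoter, chr5:90772185-90772434, plus strand: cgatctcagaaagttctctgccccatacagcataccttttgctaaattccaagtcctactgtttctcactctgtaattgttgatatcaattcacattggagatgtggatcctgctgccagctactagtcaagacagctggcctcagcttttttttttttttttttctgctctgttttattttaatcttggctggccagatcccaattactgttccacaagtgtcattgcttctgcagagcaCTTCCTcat
Cxcl3 promoter, chr5:90785851-90786100, plus strand: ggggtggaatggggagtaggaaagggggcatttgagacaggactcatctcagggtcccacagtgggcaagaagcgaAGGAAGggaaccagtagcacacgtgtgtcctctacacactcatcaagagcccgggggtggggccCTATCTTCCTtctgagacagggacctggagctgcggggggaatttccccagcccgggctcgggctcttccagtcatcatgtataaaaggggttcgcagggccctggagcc
Itgb3 intragenic region, midpoint, chr11:104661459-104661758, plus strand: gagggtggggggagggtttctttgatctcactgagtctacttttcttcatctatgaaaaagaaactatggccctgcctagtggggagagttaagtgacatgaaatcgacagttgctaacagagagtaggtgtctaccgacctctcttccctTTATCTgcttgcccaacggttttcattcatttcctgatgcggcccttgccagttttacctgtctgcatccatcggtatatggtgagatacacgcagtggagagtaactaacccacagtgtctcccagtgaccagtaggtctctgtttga
Gp9 upstream region, midpoint, chr6:87763460-87763759, plus strand: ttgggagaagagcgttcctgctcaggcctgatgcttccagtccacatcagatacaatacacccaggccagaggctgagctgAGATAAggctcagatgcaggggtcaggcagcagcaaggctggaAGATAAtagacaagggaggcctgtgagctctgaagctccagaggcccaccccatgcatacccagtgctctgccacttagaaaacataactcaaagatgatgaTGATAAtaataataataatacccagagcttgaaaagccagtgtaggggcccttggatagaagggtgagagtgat

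The *Gp1ba* promoter held 3 GATA motifs and 1 ETS motif within 250 bases. The GATA motifs began at positions -104, -51 and -23, counted back from the start, and the last lay beside the ETS motif at -16 without overlap. Among 20150 promoters of 16522 protein-coding genes, 23.1% held a GATA motif in this window, 41.5% an ETS motif and 8.49% both. The *Gp9*, *Pf4* and *Selp* promoters held 1 ETS motif each, the *Itga2b* promoter held 2 and the *Ppbp* promoter held neither motif. The *Cxcl3* promoter held 1 GATA and 2 ETS motifs, of which the GATA motif and an ETS motif shared bases. The midpoint of the *Gp9* upstream region held 3 GATA motifs and that of the *Itgb3* region 1. The midpoints of the *Pf4* regions from -6.96, 1.09 and 12.27 kb, of both *Itga2b* regions and of the *Gp1ba* region from -17.69 kb held none. Those of the remaining H3K27ac regions of the windows held 1 or 2. Of the 13217 H3K27ac regions found in all 10 lists, 34.3% held a GATA motif in 300 such bases, 43.9% an ETS motif and 14.3% both. Over their whole length, the 14 H3K27ac regions of the windows held 0.671 to 3.60 GATA motifs per kb, and 9 of them lay above and 5 below the median of 1.72 per kb over the regions found in all 10 lists. The ends of this range were the intragenic *Itga2b* region and a region downstream of *Gp9* found in 1 list. A match describes letters only and is not evidence of binding.

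Peaks of a histone mark lay in the gene windows of 6 of the 9 genes and in none of the other 3. *Vwf*, *Selp* and *Thbs1* had no H3K4me3 or H3K27ac peak within 20 kb in any of the 20 lists. Over all genes, 33.3% had no peak of either mark in any list, so an empty window is common. *Gp1ba* was the only one of the 9 with both marks over its TSS in 10 of 10 lists, as in 36.1% of all genes. *Gp9* and *Itga2b* had H3K27ac over the TSS in 10 of 10 lists and H3K4me3 over it in 0 of 10. That combination, looked for after these values were seen, occurred in 30 genes (0.137%). *Itgb3* had H3K4me3 over the TSS in 2 of 10 lists and no H3K27ac within 2 kb. For *Pf4* and *Ppbp*, neither mark covered the TSS in any list.

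The length covered by peaks in the gene window was then compared between 0 h and 24 h with limma on log2(covered bp + 200), fitted on all windows with a peak in at least 2 lists of the mark. By limma 0 of the 6 windows with peaks passed an adjusted p of 0.05 for H3K4me3, where 1.11% of 13666 windows did, and 0 of 6 for H3K27ac, where 5.23% of 13925 windows did. At an unadjusted p under 0.05 stood 2 of the 6 for H3K4me3 (*Pf4* and *Ppbp*) and 3 for H3K27ac (these and *Gp1ba*). *Pf4* and *Ppbp* share every peak, so their windows give 1 result, not 2. Over all windows, 1577 of 13666 for H3K4me3 and 2911 of 13925 for H3K27ac stood under this limit. The limma test of a linear trend over the 5 times also called 0 of 6 for each mark, with 2 and 3 at an unadjusted p under 0.05, where it called 1.46% and 6.55% of all windows. For the trend, 1609 of all H3K4me3 windows and 3138 of all H3K27ac windows had an unadjusted p under 0.05. Of the promoter windows (2 kb on each side of the TSS), 4 could be tested for H3K4me3 and 5 for H3K27ac, and limma called 0 of each, with 0 and 1 (*Gp9*) at an unadjusted p under 0.05, against 0.269% and 1.55% called of all. Among all promoter windows, 769 of 10040 for H3K4me3 and 1327 of 9640 for H3K27ac had an unadjusted p under 0.05. Some of the promoter tests could show little. For H3K27ac, the *Gp1ba* promoter window was covered in full in 10 of 10 lists and could not lengthen. That of *Ppbp* held only 131 and 41 bp at 0 h and no peak later. For H3K4me3, the *Itga2b* promoter window held only 80 to 301 bp. With 2 lists against 2, an exact permutation test of 1 gene cannot go below a two-sided p of 0.333. In these bulk samples, fewer cells with a mark and less of the mark per cell cannot be told apart.

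**Figure D1:**
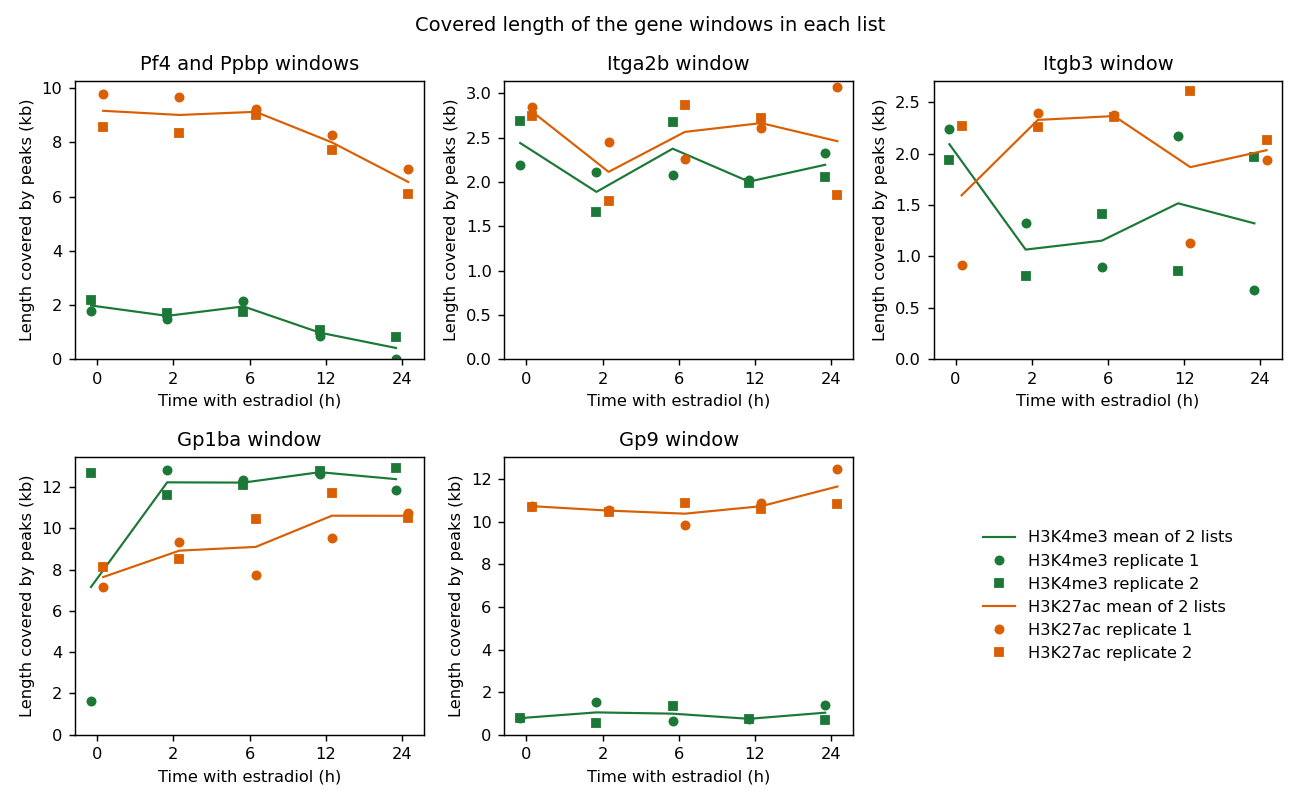
Length of the gene window covered by peaks (kb) in each list against time with β-estradiol (h, equally spaced), for H3K4me3 (green) and H3K27ac (orange); circles and squares are replicates 1 and 2, and lines join the means of 2 lists. The H3K27ac length in the *Pf4* and *Ppbp* windows falls from 9773 and 8554 bp at 0 h to 7002 and 6075 bp at 24 h, and the *Gp1ba* H3K4me3 length at 0 h is split between 1653 and 12662 bp.

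The chemokine genes *Ppbp* (chr5:90768518-90770063) and *Pf4* (chr5:90772435-90773383) lie side by side on the plus strand, and their windows share every peak region and the genes *Cxcl5* and *Cxcl3*, which encode neutrophil-attracting chemokines. The H3K27ac lengths in bp at 0, 2, 6, 12 and 24 h, in this order, were 9773 and 8554, then 9665 and 8354, 9228 and 9024, 8278 and 7718, and last 7002 and 6075. Both lists at 24 h were thus below all 8 earlier lists, an order for which no share over all windows was computed. The mean went from 9163.5 ± 862 bp to 6538.5 ± 655 bp (SD, n = 2) between 0 h and 24 h, and 18.1% of all H3K27ac windows had both 24 h lists below both 0 h lists. The log2 difference was -0.47 (SE 0.11) and missed the threshold (limma, adjusted p = 0.0635), and the trend was -0.11 per time point (SE 0.025, adjusted p = 0.0502). Both stood near the threshold and passed it under some settings: the difference reached an adjusted p of 0.0416 when lengths were scaled by each list's median peak length. The H3K4me3 length went from 1769 and 2187 bp to 0 and 821 bp, both below the lists at 0 h, as in 28.2% of all H3K4me3 windows. This gave a log2 difference of -2.26 (SE 0.61, adjusted p = 0.172) on the log2(bp + 200) scale. The value rested on both lists at 24 h: it was -3.44 (adjusted p = 0.000828) without replicate 2 and -1.09 (adjusted p = 0.0764) without replicate 1.

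Within these windows a single H3K27ac region passed the threshold. The mean length of each other H3K27ac region was also lower at 24 h than at 0 h, without passing. The region at chr5:90784708-90786800, 12.27 to 14.36 kb downstream of the *Pf4* TSS and over the TSS of *Cxcl3*, was present in 8 of 8 lists up to 12 h and in neither list at 24 h. Its lengths in bp at 0, 2, 6 and 12 h, in this order, were 1660 and 1540, then 2048 and 1428, 1653 and 1818, and last 1415 and 1109. The log2 difference of 24 h from 0 h was -3.17 (SE 0.24, limma adjusted p = 0.000658). Of all 24299 H3K27ac regions, 0.741% had this course, and 4.18% were lost by presence, that is, found in both lists at 0 h and neither at 24 h. The peaks were weak, with scores (the peak caller's measure of significance, which starts at 50 in these lists) of 82.6 to 142, and a filter that kept only peaks above the median H3K27ac score of 242 removed the region. Whether H3K27ac was absent there at 24 h or its peak was not called cannot be told from the lists. A CTCF peak lay over this TSS in the lists of both times. H3K4me3 over the same TSS (chr5:90785406-90786352) was found in 6 of 10 lists, among them 1 at 0 h and none at 24 h, and did not pass (log2 difference -1.24, SE 0.87, adjusted p = 0.688). That difference was -2.48 without replicate 1 at 0 h and vanished without replicate 2, the list at 0 h that held the peak.

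None of the other regions tested in this locus passed. The H3K27ac region closest to *Pf4* (chr5:90773525-90778730) began 1.09 kb downstream of its TSS, just past the gene's end, and reached to 6.30 kb. It was present in 10 of 10 lists, its mean going from 4345 ± 443 bp to 4118 ± 420 bp (SD, n = 2) between 0 h and 24 h, a log2 difference of -0.074 (SE 0.11, adjusted p = 0.753). A region over the *Cxcl5* TSS (-15.01 to -12.52 kb from the *Pf4* TSS) was present in 10 of 10 lists, and its log2 difference was -0.30 (SE 0.17, adjusted p = 0.418). A weak region at -6.96 to -5.79 kb from the *Pf4* TSS, which is -3.04 to -1.87 kb from that of *Ppbp*, was present in 7 of 10 lists, both at 0 h and both at 24 h included. The H3K4me3 region at -14.50 to -13.16 kb from the *Pf4* TSS lay within the span of the H3K27ac region over the *Cxcl5* TSS. It was present in 9 of 10 lists and missing in replicate 1 at 24 h (log2 difference -1.61, SE 0.67, adjusted p = 0.380). Without this list the difference was -0.44 (adjusted p = 0.817), and without replicate 2 at 24 h it was -2.79 (adjusted p = 0.0167). A further 2 H3K4me3 regions, 2.61 to 3.28 kb and 3.55 to 4.24 kb downstream of the *Pf4* TSS, appeared in 1 list each, replicate 1 at 0 h and replicate 1 at 6 h. No peak of either mark touched the bodies of *Pf4* and *Ppbp*. No H3K4me3 peak lay within 2 kb of the TSS of either gene in any list, so none of the H3K4me3 window difference came from their promoters.

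**Figure D2:**
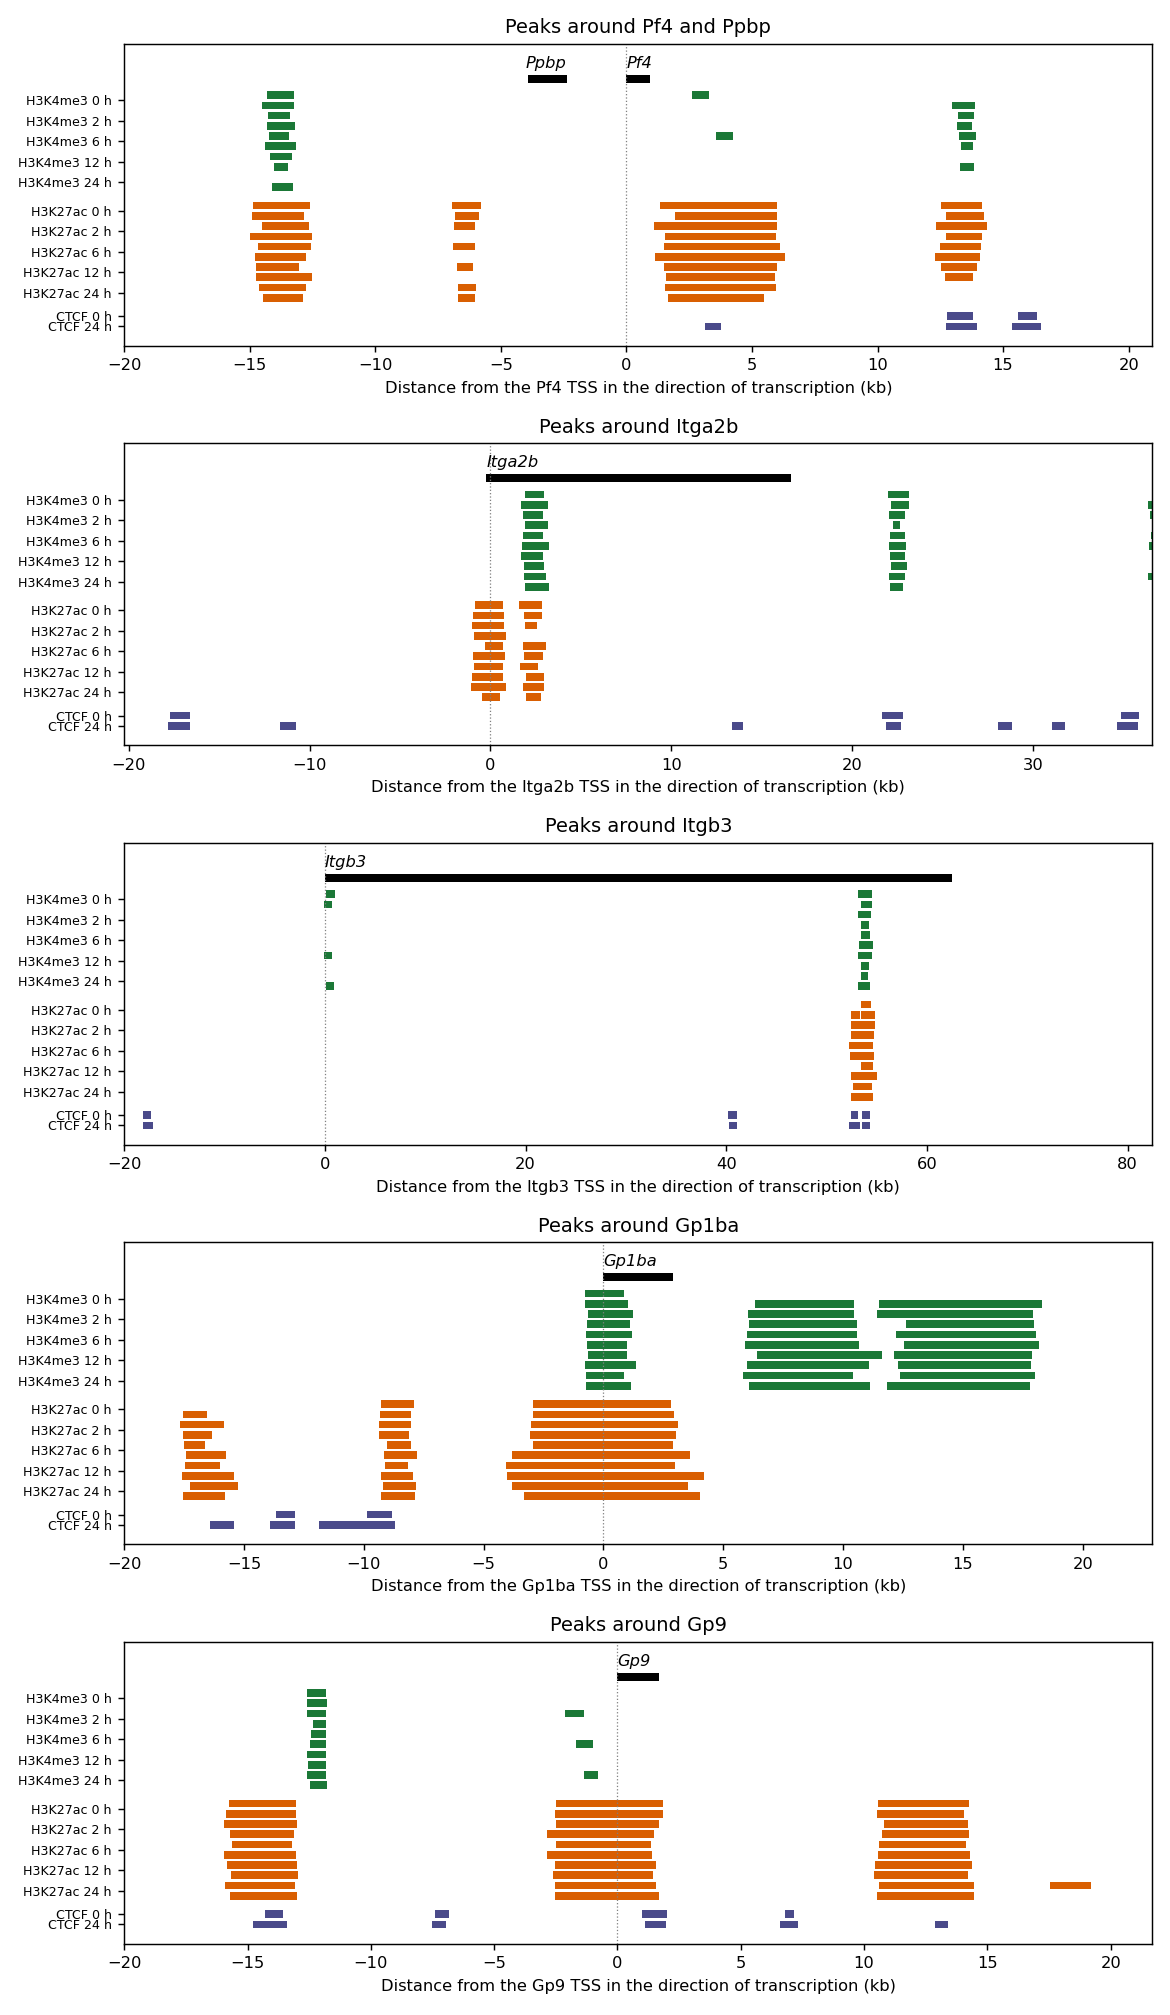
Peaks in the windows of the 6 genes with histone peaks, by distance from the TSS in the direction of transcription (kb); each row is 1 list, ordered by time with replicate 1 above replicate 2 (1 CTCF list per time), and black bars are gene bodies. The H3K27ac peak near 13 kb from *Pf4* is absent from both rows at 24 h, and the H3K4me3 block 6 to 18 kb from *Gp1ba* is absent from the first row at 0 h.

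The integrin genes *Itga2b* (chr11:102453297-102470122, minus strand) and *Itgb3* (chr11:104608000-104670476, plus strand) had peaks in all lists of both marks but at different places. At *Itga2b*, whose TSS was taken at position 102469883, the start of its main coding transcript, H3K27ac covered the TSS (chr11:102469027-102470939) in 10 of 10 lists. At 0 h it was 1547 and 1762 bp long. The lists at 24 h, with 1908 and 1010 bp, lay on both sides of these. The H3K4me3 peak nearest to this TSS was intragenic, 1.70 to 3.26 kb downstream over coding exons and introns (chr11:102466625-102468183), in 10 of 10 lists with lengths of 1018 to 1496 bp. A second H3K27ac region lay at the same place in 9 of 10 lists, all but replicate 2 at 2 h. The log2 difference of the whole *Itga2b* window was -0.14 (SE 0.15, adjusted p = 0.824) for H3K4me3 and -0.21 (SE 0.24, adjusted p = 0.693) for H3K27ac. The remaining H3K4me3 regions, merged over the lists, spanned the TSS of *Fam171a2* and, reaching into the window only at its edge, that of *Grn*. Each had a peak in 10 of 10 lists, and no H3K27ac peak overlapped them inside the window.

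*Itgb3*, whose gene body spans 62477 bp, had its steady peaks far inside the gene. H3K27ac (chr11:104660224-104662994) lay 52.22 to 54.99 kb downstream of the TSS and H3K4me3 (chr11:104661119-104662591) 53.12 to 54.59 kb downstream, each in 10 of 10 lists and each over a coding exon with its introns. The H3K27ac lengths in bp at 0, 2, 6, 12 and 24 h, in this order, were 919 and 2269, then 2399 and 2258, 2380 and 2352, 1127 and 2610, and last 1935 and 2132. The short values were replicate 1 at 0 h and replicate 1 at 12 h, and the lists at 24 h lay between those at 0 h (log2 difference 0.42, SE 0.43, adjusted p = 0.645). At the *Itgb3* TSS, H3K4me3 within 2 kb was present in 4 of 10 lists, both at 0 h, replicate 1 at 12 h and replicate 2 at 24 h, with scores of 50.1 to 89.5. The H3K4me3 length of the window had a log2 difference of -0.73 (SE 0.50, adjusted p = 0.664), which was -0.075 without replicate 1 at 24 h and -1.39 without replicate 2 at 24 h.

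*Gp1ba* (chr11:70639122-70642036, plus strand) had the broadest H3K27ac region of the set. Merged over the lists, it ran from -4.07 to 4.19 kb around the TSS (chr11:70635054-70643314) and so spanned the whole gene and the promoter printed above. In replicate 1 at 0 h and replicate 1 at 6 h the peak ended just short of the gene's end, 2822 and 2907 bp from the TSS. The 4001 bp within 2 kb of the TSS were covered in full in 10 of 10 lists. The region's lengths in bp at 0, 2, 6, 12 and 24 h, in this order, were 5771 and 5862, then 6164 and 6102, 5862 and 7408, 7062 and 8233, and last 7346 and 7344. All 4 lists at 12 h and 24 h were longer than the 4 lists at 0 h and 2 h, an order for which no share over all regions was computed. The mean went from 5816.5 ± 64.3 bp to 7345 ± 1.41 bp (SD, n = 2) between 0 h and 24 h, and 25.5% of all H3K27ac regions tested had both 24 h lists above both 0 h lists. The log2 difference of 0.33 (SE 0.12) missed the threshold when the spread was taken from all 5 times (adjusted p = 0.199) and passed when only the lists at 0 h and 24 h were fitted (adjusted p = 0.0447). With peaks above the median score only, the direction turned (-2.46, adjusted p = 0.666). The scores of these peaks were 241 and 275 at 0 h but 137 and 130 at 24 h, where the peaks were longer. A further pair of H3K27ac regions lay upstream. The one at -17.69 to -15.24 kb was missing in replicate 1 at 0 h and present in the other 9 lists (log2 difference 2.10, SE 0.78, adjusted p = 0.190). This difference was 0.83 (adjusted p = 0.398) without that list and 3.38 (adjusted p = 0.0148) without replicate 2 at 0 h. The one at -9.36 to -7.78 kb was present in 10 of 10 lists. The window as a whole had a log2 difference of 0.47 (SE 0.16, adjusted p = 0.165).

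H3K4me3 covered the *Gp1ba* TSS (chr11:70638334-70640482) in 10 of 10 lists with lengths of 1616 to 2126 bp. The largest H3K4me3 block of the window, chr11:70644927-70657413, held the TSS of the neighbours *Slc25a11*, *Rnf167*, *Pfn1* and *Eno3*. It was absent from replicate 1 at 0 h and covered 9850 to 11039 bp in the other 9 lists. This list set the difference of the *Gp1ba* window, which was 1.36 (SE 0.70, adjusted p = 0.548) over all lists, -0.033 (adjusted p = 0.961) without it and 2.76 (adjusted p = 4.34e-05) without replicate 2 at 0 h. The block itself had a log2 difference of 2.86 (SE 1.5, adjusted p = 0.527). No list held an H3K27ac peak in this block. Whether the peaks missing here were never called or are not among the rows analysed here cannot be told from the lists.

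**Figure D3:**
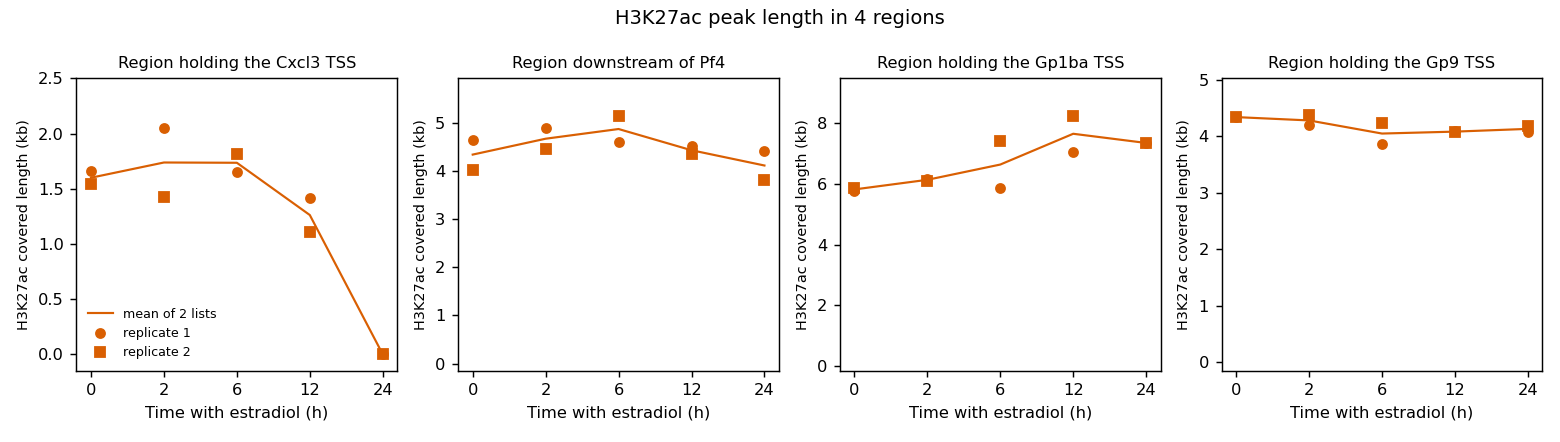
H3K27ac covered length (kb) of 4 regions in each list against time with β-estradiol (h, equally spaced); circles and squares are replicates 1 and 2, and lines join the means of 2 lists. The region over the *Cxcl3* TSS drops to 0 in both lists at 24 h, the region over the *Gp1ba* TSS goes from 5771 and 5862 bp to 7346 and 7344 bp, and the regions downstream of *Pf4* and over the *Gp9* TSS stay present in all 10 lists.

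*Gp9* (chr6:87778072-87779768, plus strand) had 3 H3K27ac regions, each in 10 of 10 lists. The region over the TSS (chr6:87775205-87779902) ran from -2.87 to 1.83 kb and was 3866 to 4368 bp long, with a median score at the 66.6th percentile of its list. The upstream region (chr6:87762118-87765101), at -15.95 to -12.97 kb, was 2448 to 2977 bp long and stood at the 63.5th percentile. The third, 10.40 to 14.47 kb downstream (chr6:87788468-87792538), went from 3684 and 3533 bp to 3852 and 3928 bp between 0 h and 24 h (log2 difference 0.10, SE 0.054, adjusted p = 0.357). One more region, 17.52 to 19.19 kb downstream, appeared in replicate 1 at 24 h alone. The window as a whole differed by 0.11 (SE 0.089, adjusted p = 0.536) for H3K27ac and by 0.28 (SE 0.45, adjusted p = 0.896) for H3K4me3. H3K4me3 was found at -12.59 to -11.79 kb in 10 of 10 lists, beside the upstream H3K27ac region, and at -2.14 to -0.78 kb in 1 list each at 2 h, 6 h and 24 h.

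Counted together, the windows held 13 H3K4me3 regions, 6 of them in all 10 lists, and 14 H3K27ac regions, 9 of them in all 10 lists. By presence none was gained between 0 h and 24 h, where 0.456% of all H3K4me3 regions and 3.43% of all H3K27ac regions were. None of the H3K4me3 regions was lost, against 3.88% of all, and 1 H3K27ac region was. By limma 0 of 11 H3K4me3 regions tested passed, against 1.58% of all, and 1 of 13 H3K27ac regions, the one over the *Cxcl3* TSS, against 6.32% of all, so the number called is near the background for both marks. At an unadjusted p under 0.05 stood 1 H3K4me3 region, at -14.50 kb from *Pf4*, and 3 H3K27ac regions, over the *Cxcl3* TSS and at -17.69 and -4.07 kb from the start of *Gp1ba*. Over all regions tested, 1841 of 14862 for H3K4me3 and 4444 of 21011 for H3K27ac stood under this limit. The 9 H3K4me3 regions that held no TSS of another gene had peaks of low rank, between the 0.0842nd and the 29.8th percentile of score in their lists.

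CTCF peaks numbered 17 at 0 h and 24 at 24 h in the windows of 7 of the 9 genes, with 1 list per time and so no replicate check. All 17 peaks at 0 h overlapped a peak at 24 h, and the other 7 were found at 24 h alone, with scores of 50.7 to 90.3 that put them between the 0.520th and 29.1st percentile of that list. Over the genome 68.9% of CTCF regions were in both lists, 25.1% in the 24 h list alone and 5.94% in the 0 h list alone, so the longer 24 h list also gave more peaks elsewhere. *Selp* (chr1:164115264-164150026, plus strand), which had no histone peak, had 2 intronic CTCF peaks in both lists. The stronger, 23.08 to 24.38 kb downstream of its TSS, had scores of 623 and 992 and stood at the 99.8th and 99.7th percentile of the 0 h and 24 h lists. The upstream *Gp9* region had a CTCF peak inside it in both lists (-14.79 to -13.39 kb, 93.9th and 96.2nd percentile), and the intragenic *Itgb3* region held 2 weaker ones in both lists. *Vwf* (chr6:125546774-125686679) and *Thbs1* (chr2:118111876-118127133), both on the plus strand, had no peak in any of the 22 lists.

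The setting was given by 41 other genes of the lineage: 12 receptors, 8 granule and secreted proteins, 8 genes of platelet formation and signalling, and 13 transcription factors. H3K4me3 lay within 2 kb of the TSS in all 10 lists for 11 of them and in none for 26. H3K27ac did so for 6 and 32. Over all genes 43.7% had H3K4me3 within 2 kb in all 10 lists and 53.8% in none, and for H3K27ac these shares were 39.0% and 54.9%. The following genes were chosen after their values were seen. Among the partners of *Gp1ba* and *Gp9*, *Gp5* had both marks over its TSS in 10 of 10 lists, and *Gp1bb* had neither mark within 2 kb. Both marks also lay within 2 kb in 10 of 10 lists at *P2ry1*, an ADP receptor gene, and at *Rgs18*, a regulator of G-protein signalling in platelets. *Fli1* had no peak of either mark in its window in any list.

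Of these 41 genes, 25 windows could be tested for H3K4me3, with 0 longer and 2 shorter at 24 h, and 28 for H3K27ac, with 2 longer and 1 shorter. Over all windows 0.439% were called longer and 0.673% shorter for H3K4me3, and 3.37% and 1.86% for H3K27ac. The median log2 difference was -0.061 for H3K4me3 and 0.088 for H3K27ac, beside -0.026 and 0.049 over all windows. H3K27ac in the window of *Tubb1*, the platelet-specific β-tubulin gene, went from 8709 and 8470 bp to 11373 and 11472 bp between 0 h and 24 h (log2 difference 0.40, SE 0.073, limma adjusted p = 0.0288). H3K27ac in the window of *Gata2*, the GATA factor of progenitors that GATA1 replaces during erythroid maturation, covered 1000 and 862 bp at 0 h, whereas neither 24 h list held a peak (log2 difference -2.50, SE 0.24, adjusted p = 0.0046). The limit on missing peaks given for the block beside *Gp1ba* holds here too. For 12 h and 24 h the paper describes modest changes of accessibility and marks at the *Gata2* promoter and enhancers. At *Erg*, an ETS factor gene, H3K4me3 fell from 4611 and 4646 bp to 2709 and 3180 bp over the same time (log2 difference -0.62, SE 0.10, adjusted p = 0.0326).

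*Zfpm1*, which encodes the GATA1 cofactor FOG1, had a shorter H3K4me3 length and a longer H3K27ac length at 24 h. H3K4me3 in its window fell from 7112 and 6574 bp to 723 and 531 bp between 0 h and 24 h (log2 difference -3.10, SE 0.16, limma adjusted p = 0.000264). H3K27ac there rose from 3265 and 2993 bp to 7623 and 5581 bp (log2 difference 1.02, SE 0.16, adjusted p = 0.0177). No H3K27ac peak lay within 2 kb of its TSS in any list. Within 2 kb of the TSS the H3K4me3 peak covered 3337 and 3431 bp at 0 h and was missing at 24 h, so the fall rests in part on a peak missing from both 24 h lists, for which the same limit holds as for the block beside *Gp1ba*.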

How the data were processed

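H3K4me3, H3K27ac and CTCF ChIP-seq was done on G1ER cells. The authors aligned reads to mm10 with Bowtie2 (version not given in the sources used here), discarded reads that did not map uniquely, and ran MACS (--nomodel) on each library; the MACS version, control and threshold, and the CTCF peak calling, are not given in the sources used here. The deposited files hold each peak's position (other columns in base pairs) and a score, which follows the negative log10 of the p-value multiplied by 10 and was compared only as a rank within a list. Library totals were not given, so depth is unknown and only the number of peaks bounds precision. The labels mention a human build in one protocol, but the positions fit mm10.

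Covered length was computed per protein-coding gene window (GENCODE M21, 20 kb flanks), promoter window (2 kb on each side of the TSS, taken from the best APPRIS level and there from its longest transcript) and consensus region (union of a mark's lists, merged where they touch). It was tested with limma 3.58.1 in R 4.3.3 (lmFit, eBayes with trend) on log2(bp + 200), features with a peak in at least 2 lists, 1 mean per time over the 10 lists of a mark, no replicate block, two-sided, Benjamini-Hochberg over all features, call at an adjusted p under 0.05. The test was tested on simulated data. Replicates are the labels' 2 lists per time. The authors state 2 independent experiments for ChIP-seq in these cells but do not say whether these were separate cultures. The p-values measure the spread between these lists. Every gene of the set was named, its histone regions were given by value or count, and other lineage genes were named where they passed the test or, as stated, after their values were seen. Genes with a similar course over the lists were to be named only for a window that passed, and none did. The genes, lists and tests were chosen with earlier results of these data known. Some items are not reported here. Python 3.11.15 and pandas 2.3.3 were used.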

Additional observations from a re-analysis of the deposited data

How the results depend on the processing

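The loss of the H3K27ac peak over the *Cxcl3* TSS kept its direction and passed the threshold under all 18 alternatives that gave a value. The log2 differences ran from -5.04 to -1.38, and with higher-scoring peaks only there was no value. These settings reuse the same lists without a peak at 24 h, so they do not show whether the mark itself was lost. Over the genes and regions with a printed difference, 463 alternatives were computed, of which 423 kept direction and call, 27 passed the threshold where the reported value did not, and 13 changed sign. The H3K4me3 window of *Itga2b* went to 0.022 with a flank of 5 kb and to 0.022 without peaks at another TSS, and the H3K27ac window of *Gp9* to -0.068 with a flank of 5 kb. With higher-scoring peaks only, H3K27ac turned to -2.72 for *Itgb3* and to -2.46 for the *Gp1ba* window and its TSS region, while the *Gp9* window (0.59, adjusted p = 0.00602), its downstream region (4.35, adjusted p = 0.000199) and the *Cxcl5* region (-3.56, adjusted p = 0.00063) passed. The cause was not tested. Leaving out 1 list each time gave H3K4me3 window differences of -0.033 to 2.76 for *Gp1ba*, -0.13 to 0.69 for *Gp9*, -0.034 to 5.76 for the block beside *Gp1ba*, and H3K27ac differences of -0.54 to 0.13 for *Itga2b*, -0.15 to 0.996 for *Itgb3* and -0.17 to 0.026 for the region downstream of *Pf4*. The lists that decided a call were H3K4me3 replicate 2 at 24 h (*Pf4* and *Ppbp* window; region at -14.50 kb from *Pf4*, range without 1 list -2.79 to -0.44), H3K4me3 replicate 2 at 0 h (*Gp1ba* window and block, the latter 5.76, adjusted p = 8.01e-07) and H3K27ac replicate 2 at 0 h (region at -17.69 kb from *Gp1ba*, range 0.83 to 3.38). For *Pf4* and *Ppbp*, the H3K27ac trend passed in 6 alternatives each (lowest adjusted p = 0.0303), and with a flank of 50 kb the *Ppbp* window passed (-0.60, adjusted p = 0.0483).

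Across all windows tested, the replicate numbers showed no pairing of the lists. Deviations of same-numbered lists correlated between -0.135 and 0.0615 for H3K4me3 and between -0.075 and 0.0508 for H3K27ac. For each mark, 0 of 10 pairs were over 0.1. These correlations do not settle pairing in a single window. In the *Pf4* and *Ppbp* H3K27ac windows, replicate 1 was longer than replicate 2 at every time. With the replicate block, the *Pf4* and *Ppbp* H3K27ac windows passed (-0.47, adjusted p = 0.0388; trend adjusted p = 0.0303), no other gene or region with a printed difference changed its call, and 130 H3K4me3 windows were called for the trend and 146 H3K4me3 regions, the latter in place of 235.

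Counts over all features moved by over 1.5 times as follows. With higher-scoring peaks only, the calls were 82 H3K4me3 promoter windows (27 as reported), 90 H3K4me3 regions, 280 H3K27ac windows (728), 346 for the H3K27ac trend (912) and 403 H3K27ac regions (1327). With the lists at 0 and 24 h only they were 42 H3K4me3 promoter windows, 734 H3K4me3 regions, 336 H3K27ac windows, 249 H3K27ac promoter windows (149) and 2339 H3K27ac regions. Promoter windows of 5 kb gave 77 H3K4me3 calls, promoter windows of 1 kb gave 79 H3K27ac calls, a flank of 5 kb gave 477 H3K27ac windows, and scaling by median peak length gave 367 H3K4me3 trend calls. Scaling also turned 60 longer and 92 shorter H3K4me3 windows into 49 and 158, and 469 longer and 259 shorter H3K27ac windows into 391 and 345; with an equal number of peaks per list the H3K4me3 split was 86 and 59, and with higher-scoring peaks only the splits were 9 and 125 for H3K4me3 and 129 and 151 for H3K27ac. Without 1 list, the H3K4me3 calls ranged from 65 to 212 windows, 24 to 46 promoter windows, 100 to 257 trend calls and 75 to 292 regions, and the H3K27ac calls from 300 to 679 windows, 133 to 200 promoter windows, 487 to 801 trend calls and 1092 to 1585 regions. Around the 9 genes, H3K4me3 regions gained or lost numbered 0 to 3 without 1 list and 1 with an equal number of peaks, and H3K27ac regions 1 to 2 without 1 list, 3 with higher-scoring peaks only and 2 when at least 50% of a region had to be covered. CTCF peaks above the median score numbered 8 at 0 h and 12 at 24 h. Depth cannot be judged from these lists, so an absent peak near the calling limit says little.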

Other observations

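Besides *Itga2b* and *Gp9*, 28 other genes had H3K27ac over the TSS in all 10 lists and H3K4me3 over it in none. Of the 30, 10 had H3K4me3 elsewhere within 2 kb in all 10 lists, 13 had it there in none, and 7 in some. They included *Cxcl5*, which lies beside *Ppbp*, the kinase genes *Btk* and *Txk*, the T cell receptor chain gene *Cd247*, and *Ackr1*, the Duffy antigen chemokine receptor gene. The criterion was set after the values of *Itga2b* and *Gp9* had been seen.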
